A study of Mus musculus with 78 samples.

Results

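The imprinted genes described here were H19, Igf2, Meg3, Rian, Mirg, Peg3, Mest, Cdkn1c, Dlk1 and Grb10, a list of 10 genes taken by name from the 55401 genes of each count table. They were followed in E14TG2a mouse embryonic stem cells (mESCs) whose ZFP143 carries an FKBP degron, so that the small molecule dTAG-V1, given at 500 nM, sends the tagged protein for degradation. ZFP143 is a zinc finger transcription factor that binds mostly at promoters. Transient transcriptome sequencing (TT-seq), in which newly made RNA is labelled with 4-thiouridine (2 mM for 10 min), was done with DMSO as the control and with dTAG-V1 treatment for 2, 6 or 24 h. RNA-seq of poly(A) RNA was done in DMSO and after 24, 48 and 72 h, in stem cell medium with 2i and LIF. A separate RNA-seq experiment compared cells kept for 24 h in DMSO or dTAG-V1 with cells that then spent a further 24 h with all-trans retinoic acid (RA), DMSO or dTAG-V1 being continued. RA was given in a medium without 2i and LIF, so the effect of RA, that of the change of medium and that of 24 h more in culture cannot be told apart, and the depleted RA cells had been depleted for 48 h. All 12 groups come from the same tagged line and hold 2 libraries each, which the study calls biological replicates, and each set of 8 libraries has its own DMSO control.

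Imprinted genes are transcribed from the maternal or the paternal chromosome according to methylation laid down in the germ line. Many lie in clusters, in which a methylated control region acts on several genes at once. In the H19 and Igf2 cluster, the control region upstream of H19, a non-coding RNA made from the maternal chromosome, binds the insulator protein CTCF when it is unmethylated and then keeps enhancers away from Igf2, a fetal growth factor. In the Dlk1-Dio3 cluster, the non-coding RNAs Meg3, Rian and Mirg are made from the maternal chromosome and the protein-coding Dlk1 from the paternal one, and their state is known to vary between mESC lines. The libraries do not separate the parental chromosomes, so every value here is the sum over both.

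The deposited peak lists held 22314 CTCF peaks, given as positions for DMSO and dTAG-V1 cells together, and 3189 ZFP143 peaks with their fold enrichment over input. All positions are on mm10. H19 (chr7:142575529-142578143, minus strand) had CTCF peaks centred 2.7 and 3.77 kb upstream of its start, in the stretch where the control region lies, and these were the only CTCF peaks between H19 and Igf2 (chr7:142650766-142666816, minus strand). Their plus-strand sequences are shown because CTCF binding at this place is the known switch of the cluster. Capitals mark matches to GGNGGCAG, part of the core of the CTCF motif, searched on both strands. The letters searched were chosen after the sequences had been seen.
CTCF peak at chr7:142580748-142580943, whole: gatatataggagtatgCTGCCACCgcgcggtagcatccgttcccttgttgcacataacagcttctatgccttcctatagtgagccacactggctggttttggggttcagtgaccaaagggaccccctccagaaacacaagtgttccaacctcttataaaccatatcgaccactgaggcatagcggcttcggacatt
CTCF peak at chr7:142581701-142582115, shown for chr7:142581759-142582058: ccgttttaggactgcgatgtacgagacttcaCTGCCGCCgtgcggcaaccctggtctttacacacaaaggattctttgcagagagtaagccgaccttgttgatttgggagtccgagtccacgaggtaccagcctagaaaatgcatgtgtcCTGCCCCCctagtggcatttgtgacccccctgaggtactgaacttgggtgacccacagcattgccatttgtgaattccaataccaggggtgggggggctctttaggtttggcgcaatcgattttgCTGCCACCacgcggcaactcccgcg
The windows held 1 and 3 matches, all on the minus strand, which is the strand of H19. In windows of 300 bases, the same letters occurred in 19.7% of the 22314 CTCF peaks, 14.8% of the ZFP143 peaks and 12.6% of 32851 RefSeq promoters of GRCm38.p6. Binding in DMSO and in dTAG-V1 was not compared here, since the CTCF list is shared by both conditions.

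Neither a ZFP143 nor a CTCF peak had its centre in the window that runs from 2 kb before to 1 kb after the annotated start of any of the 10 genes. Over all 31731 genes searched the same way, 7.1% had the centre of a ZFP143 peak and 9.47% that of a CTCF peak there. The nearest ZFP143 peak to H19 lay 491.2 kb from its start. Meg3 (chr12:109541001-109571726, plus strand) had CTCF peaks centred 1.17 and 2.03 kb past its start, inside the gene, and a ZFP143 peak 11.75 kb upstream, between Dlk1 and Meg3, with a fold enrichment of 28.02 over input. This ZFP143 peak was the only one within 100 kb of Meg3, Rian (chr12:109603940-109661716, plus strand) or Dlk1 (chr12:109452823-109463336, plus strand), and none lay within 100 kb of Mirg (chr12:109729764-109749460, plus strand). These sequences are shown because Meg3, Rian and Mirg were the members that rose during depletion. Capitals mark GGNGGCAG in the CTCF peaks, and TCCCAGAA, part of the known binding motif of ZFP143, in the ZFP143 peak.
CTCF peak at chr12:109541998-109542338, shown for chr12:109542019-109542318: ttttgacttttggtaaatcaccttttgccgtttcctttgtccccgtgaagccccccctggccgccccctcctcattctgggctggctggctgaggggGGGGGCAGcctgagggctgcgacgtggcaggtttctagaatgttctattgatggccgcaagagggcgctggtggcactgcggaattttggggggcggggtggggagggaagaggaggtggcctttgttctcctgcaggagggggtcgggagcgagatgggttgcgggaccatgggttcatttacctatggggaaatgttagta
CTCF peak at chr12:109542878-109543187, shown for chr12:109542883-109543182: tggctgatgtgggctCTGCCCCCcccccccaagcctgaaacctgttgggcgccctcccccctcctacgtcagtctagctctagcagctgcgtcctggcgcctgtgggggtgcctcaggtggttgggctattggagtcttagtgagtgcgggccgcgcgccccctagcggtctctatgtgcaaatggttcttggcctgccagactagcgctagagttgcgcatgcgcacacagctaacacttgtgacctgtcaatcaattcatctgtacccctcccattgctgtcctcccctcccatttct
ZFP143 peak at chr12:109529058-109529439, shown for chr12:109529099-109529398: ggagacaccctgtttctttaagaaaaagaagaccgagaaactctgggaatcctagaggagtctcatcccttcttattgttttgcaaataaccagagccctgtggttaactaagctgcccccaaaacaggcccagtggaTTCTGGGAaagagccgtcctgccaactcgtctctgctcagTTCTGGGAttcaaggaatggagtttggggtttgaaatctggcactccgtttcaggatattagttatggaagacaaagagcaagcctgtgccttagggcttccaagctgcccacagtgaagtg
Each CTCF window held 1 match to GGNGGCAG. As these letters occurred in 19.7% of CTCF peaks and 12.6% of promoters, a match need not be the bound site. On both strands of windows of 300 bases, TCCCAGAA occurred in 16.5% of ZFP143 peaks, 3.21% of CTCF peaks and 3.24% of promoters. The paper, searching with full motifs, reported them in nearly all of its ZFP143 peaks. A peak without these exact letters can therefore still hold the motif. The ZFP143 peak near Meg3 held 2 matches to TCCCAGAA and lay 12920 bases from the nearest CTCF peak.

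Peg3 (chr7:6703892-6730431, minus strand), which encodes a zinc finger protein, had a CTCF peak 2.95 kb past its start and a ZFP143 peak 33.89 kb past its start, beyond the 3′ end of the gene. The 300 bases at the middle of that CTCF peak, searched like the others, held 0 matches to GGNGGCAG. As only 19.7% of CTCF peaks held a match, its lack does not mean that a CTCF site is missing. The ZFP143 peak had a fold enrichment of 101.6, against a median of 20.8 and an upper quartile of 44.3 over the 3189 peaks, and lay 88 bases upstream of the start of Zim1, another imprinted zinc finger gene of the cluster. It is shown because the response of Peg3 to RA differed with depletion, with 1 match to TCCCAGAA in capitals.
ZFP143 peak at chr7:6696253-6696824, shown for chr7:6696389-6696688: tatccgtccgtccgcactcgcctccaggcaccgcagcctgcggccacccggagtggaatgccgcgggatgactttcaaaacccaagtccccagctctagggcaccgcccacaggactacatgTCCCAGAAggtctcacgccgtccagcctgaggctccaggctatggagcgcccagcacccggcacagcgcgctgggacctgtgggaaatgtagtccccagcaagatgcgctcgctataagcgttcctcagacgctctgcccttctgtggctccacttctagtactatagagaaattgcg
Cdkn1c (chr7:143458339-143461050, minus strand), an inhibitor of cyclin-dependent kinases, had 7 CTCF peaks within 100 kb, all upstream and the nearest at 3.02 kb. Grb10 (chr11:11930508-12038683, minus strand), an adaptor that damps insulin and growth factor receptors, had 2 CTCF peaks, both inside the gene, and Mest (chr6:30723547-30748465, plus strand), which encodes a hydrolase-fold protein, had none. Within 100 kb of the gene body, 79.5% of all genes had a CTCF peak and 38.9% a ZFP143 peak.

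**Figure D1:**
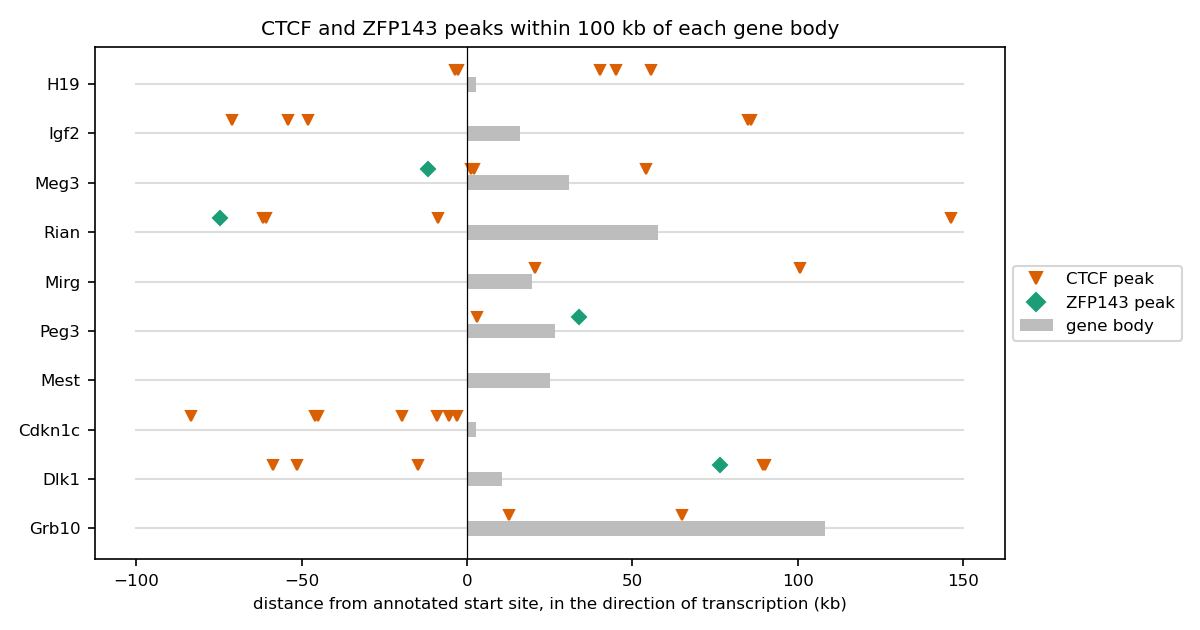
Position of every CTCF peak (triangles) and ZFP143 peak (diamonds) within 100 kb of the gene body of each of the 10 genes, as the distance in kb of the peak's centre from the annotated start site in the direction of transcription, with the gene body as a grey bar. No marker of either kind sits within 1 kb of a start site, and Mest has no marker.

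The libraries held 9721568 to 16532077 counted reads in TT-seq, 10261851 to 15316700 in the RNA-seq time course and 13890761 to 27089033 in the RA experiment. Values are given as CPM, the counts divided by the TMM-scaled library size in megareads, and edgeR tested the genes whose counts exceeded 10 in 4 or more libraries of a table. A TT-seq change was called when its log2 size was above 0.5 with an adjusted p under 0.05, and an RNA-seq change with glmTreat against a fold change of 1.5 at an adjusted p under 0.01. The filter was passed by 6 of the 10 members for TT-seq, by 7 for the RNA-seq time course and by 9 for the RA experiment. The Zfp143 transcript, which is not removed by dTAG-V1, was higher in every comparison of dTAG-V1 with DMSO, by 1.09 to 1.38 on the log2 scale. Of the markers of pluripotent cells, all 10 were detected in every group, and of the primitive endoderm markers Afp and Ttr were at 0 in both libraries of each DMSO group before RA.

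In DMSO the members covered a wide range. Per kb of exon, the RNA-seq time course had Rian first with 32.1 ± 1.24 CPM per kb (SD, n = 2, as for all values with ±, unless SE is named), followed by Meg3 with 23.6 ± 2.81 and Mest with 12.2 ± 0.75. Peg3 had 6.69 ± 0.122, Mirg 5.64 ± 0.781 and Grb10 2.94 ± 0.0926 CPM per kb. The libraries of neighbouring genes in this order did not overlap down to Grb10. Taken per kb of the longest transcript instead of all exons, Rian had 72.5, Mirg 10.8, Peg3 10.3 and Grb10 5.27 CPM per kb, and Mirg (9.71 and 11.8) and Peg3 (10.1 and 10.4) could no longer be ranked apart. The order ended with Cdkn1c, H19, Dlk1 and Igf2, all at or under 0.21 CPM per kb, among which Cdkn1c and H19, and H19 and Dlk1, overlapped between libraries. In TT-seq, per kb of gene body, Mirg came first with 23.7 CPM per kb, ahead of Meg3 with 12 and Rian with 10.2, and no other member passed 0.994. After RA in DMSO the highest level per kb was that of Mest (72.5 ± 23.7), and H19, at 13.5 ± 7.83, could not be ranked apart from Peg3 (15.4 ± 3.22) and Grb10 (13.4 ± 1.08). Per kb of the longest transcript, H19 at 8.58 and 20.5 lay below Grb10 at 22.7 and 25.4 and still overlapped with Peg3 at 20.2 and 27.1 CPM per kb. Of the 30 levels in DMSO recomputed in this way, 20 moved by more than the spread between replicates.

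H19 and Igf2 were close to silent in mESCs with and without ZFP143. H19 had no read in any of the 8 TT-seq libraries, where 3 reads, the limit that a count of 0 allows, would be 0.181 to 0.310 CPM. In the RNA-seq time course it had 4 and 0 reads in DMSO, 1 and 0 at 24 h, 0 and 4 at 48 h, then 2 and 3 at 72 h. The DMSO counts overlapped with those of every depleted group. Igf2 had 0 and 2 TT-seq reads in DMSO, 1 and 2 at 2 h, 1 and 3 at 6 h, then 0 and 1 at 24 h. In RNA-seq it had no read in DMSO or at 24 h, 1 read in 1 of the libraries at 48 h and 2 reads in each at 72 h. Neither gene passed the filter in these tables, and no change of either was detectable at this depth. An antisense gene, Igf2os, overlaps Igf2, and the strand setting of the RNA-seq counting is not given in the sources used here, so the few Igf2 reads cannot be assigned with certainty. A protein-coding gene on the same strand, Gm49394 (chr7:142650769-142669942), also covers nearly all of Igf2. RNA-seq reads shared by both genes may be missing from the Igf2 counts. Mir675, the microRNA gene inside H19 on the same strand, had no read in any library. RNA-seq of poly(A) RNA is not made to capture a microRNA, so this 0 does not show that it is absent.

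Meg3, Rian and Mirg rose together during ZFP143 depletion. In TT-seq, Meg3 had 400 and 337 CPM in DMSO, 623 and 533 at 2 h, 671 and 568 at 6 h, then 800 and 642 at 24 h. Rian, which hosts small nucleolar RNAs, had 515 and 660 CPM in DMSO, 861 and 859 at 2 h, 1020 and 1075 at 6 h, then 1338 and 1073 at 24 h. Mirg, a host of microRNAs, had 498 and 436 CPM in DMSO, 567 and 606 at 2 h, 598 and 684 at 6 h, then 769 and 709 at 24 h. For all 3 genes both depleted libraries lay above both DMSO libraries at every time. At 2 h no member was called (0 of 6, against 0.168% of 17870 genes called higher and 2.43% called lower with edgeR), and 3 of them had an unadjusted p under 0.05, Meg3 with a log2 change of 0.65 ± 0.16 (SE, adjusted p = 0.102), Rian with 0.55 ± 0.16 (0.177) and Mirg with 0.33 ± 0.13 (0.382). DESeq2 called Meg3 at 2 h, and the fit without a count filter called Meg3 and Rian. At 6 h Meg3 (0.75 ± 0.16, adjusted p = 0.0474) and Rian (0.83 ± 0.16, adjusted p = 0.0284) were called, 2 of 6 members against 0.397% of all genes called higher, and none was called lower, against 2.83%. At 24 h Meg3 (0.97 ± 0.16, adjusted p = 0.0124), Rian (1.04 ± 0.16, adjusted p = 0.00804) and Mirg (0.66 ± 0.13, adjusted p = 0.0225) were called, 3 of 6 against 2.02%, and no member was called lower, against 4.09%. The 6 h calls rested on all 4 libraries: leaving out any 1 of them left at most 1 call, with log2 changes of Meg3 from 0.63 to 0.88 and of Rian from 0.66 to 1.03. Meg3 was not called at 6 h with the size factors of DESeq2 (0.75, adjusted p = 0.0508). At 24 h Rian was called in all 4 such fits, Meg3 was not called without DMSO replicate 2 (0.87, adjusted p = 0.0611) or 24 h replicate 1 (0.80, adjusted p = 0.0671), and Mirg was called only without DMSO replicate 1. The summed primitive endoderm markers of the same TT-seq libraries were 210 to 244 CPM in DMSO, 273 to 293 at 2 h, 282 to 291 at 6 h and 296 to 417 at 24 h, so that the depleted libraries lay above DMSO here too, with 0 of 6 tested markers called at any of these times. The summed pluripotent markers overlapped with DMSO at every time, between 3839 and 4422 CPM, with 1 of 10 called lower at 24 h. The part of the endoderm markers in the TT-seq rise was not tested.

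In RNA-seq the 3 genes were higher at every time. Meg3 had 462 and 390 CPM in DMSO, 739 and 957 at 24 h, 1166 and 1121 at 48 h, then 1111 and 1164 at 72 h. Rian had 570 and 602 CPM in DMSO, 1033 and 1116 at 24 h, 1303 and 1374 at 48 h, then 1317 and 1404 at 72 h. Mirg had 45.2 and 37.1 CPM in DMSO, 53.9 and 73.9 after 24 h, 87 and 79.5 at 48 h, then 109 and 116 at 72 h. Meg3 and Rian were about level from 48 to 72 h, while the libraries of Mirg at 72 h lay above those at 48 h. At 24 h Meg3 rose 1.99-fold (log2 change 0.99 ± 0.07 SE, adjusted p = 1.28e-05) and Rian 1.83-fold (0.87 ± 0.05, adjusted p = 1.6e-06), while Mirg was not called (0.64 ± 0.10, adjusted p = 0.78). DESeq2 gave Meg3 a log2 change of 0.98 at 24 h with an adjusted p of 0.254, which was no call. At 72 h Meg3 rose 2.67-fold (1.42 ± 0.07, adjusted p = 6.41e-12), Rian 2.32-fold (1.22 ± 0.05, adjusted p = 8.65e-14) and Mirg 2.76-fold (1.46 ± 0.09, adjusted p = 4.82e-10). The counts of members called higher were 2 of 7 at 24 h, 3 of 7 at 48 h and 3 of 7 at 72 h, against 2.32%, 10.5% and 13.7% of 13925 genes, and no member was called lower, against 3.41%, 7.71% and 12% of genes. DESeq2 did not call Mirg at 48 h (1.01, adjusted p = 0.167), and the TT-seq call rule called it at 24 h (0.64, adjusted p = 7.58e-06). In these bulk samples, more cells making an RNA and more RNA per cell cannot be told apart. Over the same course the summed primitive endoderm markers were 110 to 120 CPM in DMSO, 136 to 141 at 24 h, 164 to 178 at 48 h and 204 to 217 at 72 h, with 1, 4 and 4 of 6 tested markers called higher, and the summed pluripotent markers were 6123 to 6201, 4793 to 4820, 4247 to 4350 and 4279 to 4331 CPM. Other lists moved too. The summed neural markers were 218 to 227 CPM in DMSO, 131 to 132 at 24 h, 99.6 to 105 at 48 h and 137 to 144 at 72 h. Those of trophoblast were 196 to 198, 130 to 140, 114 to 122 and 132 to 133 CPM. The part of these markers in the rise of Meg3, Rian and Mirg was not tested.

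**Figure D2:**
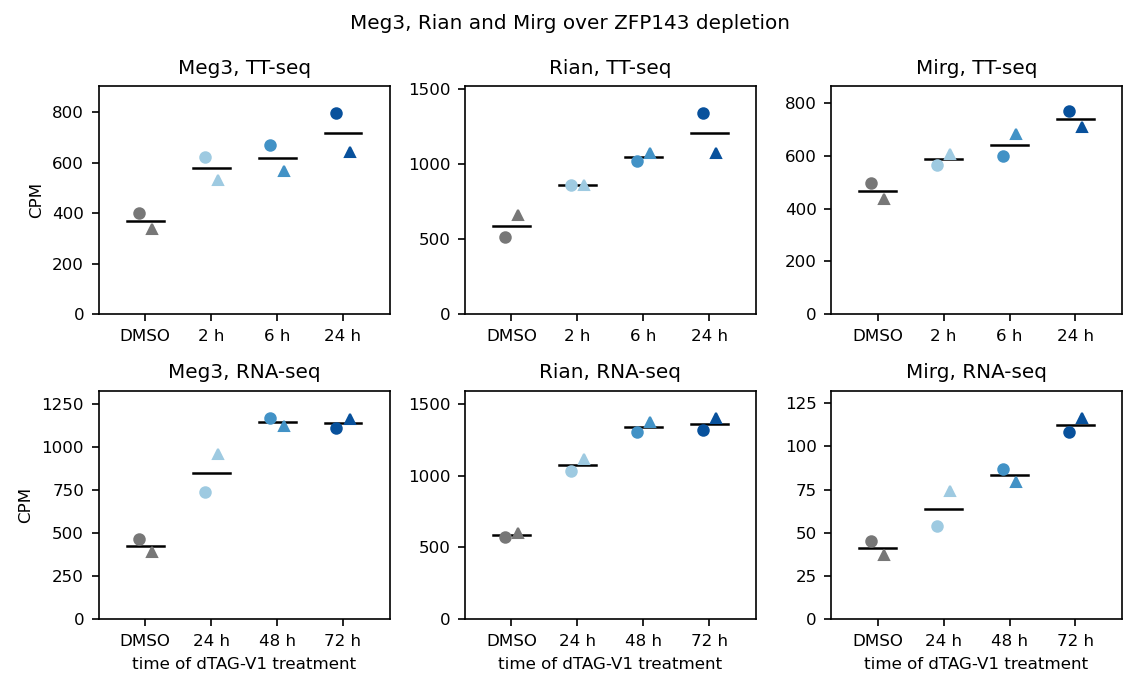
CPM of Meg3, Rian and Mirg in each TT-seq library (upper row) and RNA-seq library (lower row) against the time of dTAG-V1 treatment, with a circle for replicate 1, a triangle for replicate 2 and a line at the mean of the 2. All depleted libraries lie above the DMSO libraries of the same gene and assay, from 2 h on in TT-seq and from 24 h on in RNA-seq.

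The RA experiment holds a second set of depleted mESC libraries with its own DMSO control, taken after 24 h and before RA. Meg3 had 555 and 473 CPM in DMSO and 1229 and 1238 in dTAG-V1 there, a log2 change of 1.26 ± 0.08 (SE, adjusted p = 2.57e-07). Rian went from 684 and 569 to 1327 and 1296 CPM (1.07 ± 0.09, adjusted p = 8.25e-05), and Mirg from 50.8 and 48.7 to 106 and 102 CPM (1.07 ± 0.11, adjusted p = 0.000437). These 3 were the only members called before RA, 3 of 9 higher against 2.74% of 15915 genes and 0 of 9 lower against 3.66%. In the same libraries the summed primitive endoderm markers were 129 to 134 CPM in DMSO and 168 to 174 in dTAG-V1, with 1 of 9 tested markers called higher, and the pluripotent ones 7236 to 7546 and 6031 to 6066 CPM. The summed neural markers were 241 to 256 CPM in DMSO and 138 to 141 in dTAG-V1, and those of trophoblast 99.4 to 108 and 74.4 to 83.1 CPM. The part of these markers was not tested. DESeq2 gave Mirg a log2 change of 1.04 before RA with an adjusted p of 0.0109, which was no call.

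The other genes of the same strand lay mostly above 0 in TT-seq, where 88 genes besides Meg3, Rian and Mirg passed the filter on the plus strand between the start of Dlk1 and the end of Dio3, 82 of them microRNA or snoRNA genes. At 24 h 85 of the 88 had a log2 change above 0, with a median of 0.75, and 8 were called higher and 0 lower, against 2.02% and 4.09% of all genes. The medians were 0.39 at 2 h, with 82 of 88 above 0 and none called, and 0.62 at 6 h, with 84 of 88 above 0 and 4 called higher and 0 lower, against 0.397% and 2.83% of all genes. The median over all 17870 genes was 0.00751 at 24 h. Many of these genes lie inside Rian or Mirg, where 13 snoRNA and 4 microRNA genes and 14 microRNA genes share the host's strand, and their reads were also counted for the host, so they are not independent measurements. Among those not inside a member, the non-coding B830012L14Rik, between Rian and Mirg, had a log2 change of 0.91 (adjusted p = 0.00715) and Gm37899, in the same stretch, 0.89 (adjusted p = 0.00831). Dio3, which encodes an enzyme that inactivates thyroid hormone and is paternally expressed, was lower in RNA-seq, with a log2 change of -2.15 at 48 h (adjusted p = 3.03e-06) and -2.74 at 72 h (adjusted p = 5.1e-08). It was not called in TT-seq (-1.23 at 24 h, adjusted p = 0.382) or in dTAG-V1 before RA (0.42, adjusted p = 1). In RNA-seq 3 plus-strand genes of the interval besides the members were tested. At 48 h 1 was called higher and 1, Dio3, lower, against 10.5% and 7.71% of all genes. The same counts held at 72 h, against 13.7% and 12%. On the minus strand 2 genes were tested in TT-seq, with 0 called. This interval was examined after the values of Meg3, Rian and Mirg had been seen.

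**Figure D3:**
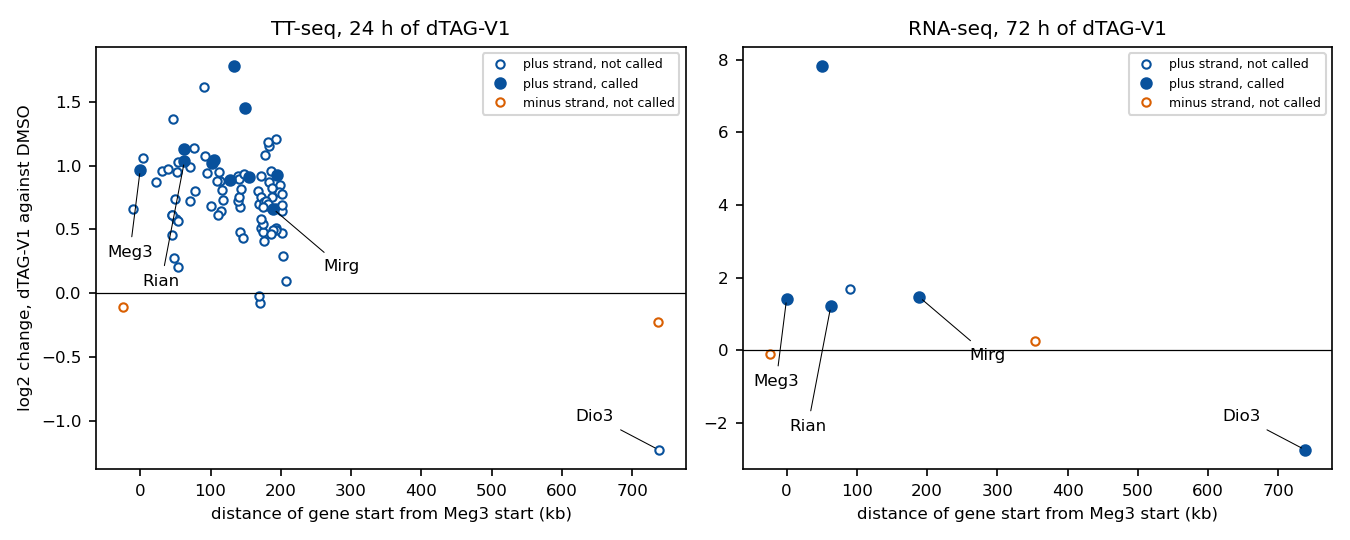
Log2 change, dTAG-V1 against DMSO, of every tested gene between Dlk1 and Dio3, against the distance in kb of its start from that of Meg3, in TT-seq at 24 h (left) and RNA-seq at 72 h (right), with plus-strand genes in blue, minus-strand genes in orange and called genes filled. In TT-seq 88 of 91 plus-strand genes, Meg3, Rian and Mirg among them, lie above 0, and Dio3, at the right, lies below 0 in both assays.

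Dlk1, a transmembrane ligand of the Notch family, was near its detection limit in mESCs. It had 1 and 2 RNA-seq reads in DMSO, 6 and 5 at 24 h, 18 and 9 at 48 h, then 6 and 5 at 72 h, and 3 to 8 TT-seq reads in every library. The RNA-seq counts were higher in each depleted library than in both DMSO libraries, but Dlk1 did not pass the filter. Without the filter its RNA-seq log2 change was 1.87 at 24 h (adjusted p = 0.573), 3.09 at 48 h (adjusted p = 0.00116) and 1.73 at 72 h (adjusted p = 0.271), from counts that low. Cdkn1c had 0.643 and 0.214 CPM in DMSO, 0.726 and 0.912 at 24 h, 1.12 and 1.07 at 48 h, then 1.76 and 1.02 at 72 h. Its log2 change at 72 h was 1.71 ± 0.52 (SE, adjusted p = 0.025), which was not called, and it passed the filter only through the 48 and 72 h libraries. Cdkn1c was called at 72 h with library size alone (1.93, adjusted p = 0.00839), with the TT-seq call rule (1.71, adjusted p = 0.00438) and without DMSO replicate 1 (2.59, adjusted p = 0.00842), and the TT-seq rule also called it at 48 h (1.42, adjusted p = 0.0242).

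Grb10 had 27.3 and 26.1 CPM in DMSO, 22.0 and 19.6 at 24 h, 31.1 and 32.8 at 48 h, then 45.2 and 45.9 at 72 h in RNA-seq. It was the lowest at 24 h and the highest at 72 h, without overlap between these groups, and its log2 change at 72 h, 0.78 ± 0.08 (SE, adjusted p = 0.011), just missed the call, and it was called with library size alone (0.99, adjusted p = 8.87e-06) and with the TT-seq call rule (adjusted p = 1.11e-09). In TT-seq Grb10 had 11.0 and 18.1 CPM in DMSO and 18.7 and 37.7 at 24 h (0.95 ± 0.34, adjusted p = 0.147), and without the count filter it was called there (0.94, adjusted p = 0.00337), as it was without 24 h replicate 1 (1.36, adjusted p = 0.0456). Peg3 stayed within 79.7 to 118 CPM in RNA-seq, with its highest values at 24 h (117 and 118, against 88.0 and 90.3 in DMSO), and was not called at any time. Mest had 45.9 and 50.1 CPM in DMSO and 69.4 and 64.2 at 72 h (0.47 ± 0.07, adjusted p = 1). In TT-seq the libraries of Mest ranged from 8.17 to 29.0 CPM, the spread within DMSO alone being 8.69 to 29.0, so that a change could not be resolved.

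H19 rose with RA from its near-silent state. H19 had 0.315 and 0.229 CPM before RA in DMSO (6 and 4 reads) and 19.6 and 46.9 CPM after RA (444 and 687 reads), a log2 change of 6.86 ± 0.45 (SE, adjusted p = 3.72e-11). The DMSO RA libraries differed by 2.39-fold from each other, but both lay far above the libraries before RA. In dTAG-V1, H19 had 0.208 and 0.239 CPM before RA and 8.26 and 9.87 after RA (5.29 ± 0.52, adjusted p = 3.45e-08). H19 passed the filter only through the 4 RA libraries. Igf2 had no read in the 4 libraries before RA, 13 and 6 reads after RA in DMSO and 19 and 10 in dTAG-V1. Taken against 3 reads over the group before RA, Igf2 was at least 6.2-fold higher after RA in DMSO and at least 10.2-fold higher in dTAG-V1, and at 0.409 to 0.923 CPM its counted level remained far below that of H19. Reads shared with Gm49394, on the same strand, may be missing from these Igf2 counts, so its level may be understated. Igf2os, its antisense neighbour, rose over the same step from 0.0573 ± 0.0811 to 0.877 ± 0.303 CPM in DMSO (log2 change 3.79, adjusted p = 0.000337), and it could share reads with Igf2 if strand was not used.

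Cdkn1c and Dlk1 also rose with RA in both conditions. Cdkn1c went from 1.21 and 0.688 CPM to 14.6 and 16.6 in DMSO (log2 change 4.01 ± 0.23 SE, adjusted p = 7.08e-12) and from 1.45 and 0.877 to 13.4 and 13.5 in dTAG-V1 (3.56 ± 0.21, adjusted p = 2.01e-11). Dlk1 went from 0.840 and 1.03 CPM to 8.83 and 8.12 in DMSO (3.18 ± 0.23, adjusted p = 5.3e-10) and from 0.987 and 0.997 to 9.72 and 9.31 in dTAG-V1 (3.25 ± 0.21, adjusted p = 9.56e-11). The difference between the RA changes, dTAG-V1 minus DMSO, was -0.45 for Cdkn1c (95% interval -1.23 to 0.34, adjusted p = 0.36) and 0.07 for Dlk1 (95% interval -0.68 to 0.82, adjusted p = 0.903).

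Peg3 and Mest rose with RA in DMSO and were not called in dTAG-V1. Peg3 went from 80.6 and 66.4 CPM to 175 and 236 in DMSO (log2 change 1.48 ± 0.11 SE, adjusted p = 2.3e-08), whereas in dTAG-V1 it had 87.6 and 95.6 before and 83.3 and 85.9 after RA (-0.12 ± 0.11, adjusted p = 1). Mest went from 135 and 121 CPM to 220 and 352 in DMSO (1.16 ± 0.13, adjusted p = 8.28e-05), whereas in dTAG-V1 it had 132 and 118 before and 70.9 and 77.4 after RA (-0.75 ± 0.14, adjusted p = 0.0747). The Mest rise in DMSO was not called by DESeq2 (1.15, adjusted p = 0.0629) or without replicate 2 of DMSO RA (0.78, adjusted p = 0.0136), and in dTAG-V1 a fall of Mest was called without the count filter (-0.83, adjusted p = 0.000775) and with the TT-seq call rule (-0.75, adjusted p = 3.54e-05). The difference between the RA changes was -1.59 ± 0.15 for Peg3 (adjusted p = 5.46e-08) and -1.91 ± 0.19 for Mest (adjusted p = 9.05e-08). The RA step in dTAG-V1 also held a second day of depletion, whose part in these differences was not tested. Over that day without RA, in the RNA-seq time course, Peg3 went from 117 and 118 CPM to 83.8 and 81.5. Mest had 50.7 and 53.9 CPM at 24 h and 48.4 and 47.9 at 48 h there. Before RA, the Mest libraries of DMSO and dTAG-V1 overlapped (-0.03 ± 0.13, adjusted p = 1), and both Peg3 libraries of dTAG-V1 lay above those of DMSO without a call (0.32 ± 0.11, adjusted p = 1).

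Grb10 rose more with RA in depleted cells. It went from 63.9 and 64.9 CPM to 115 and 129 in DMSO (log2 change 0.92 ± 0.08 SE, adjusted p = 1e-04) and from 60.3 and 62.3 to 204 and 225 in dTAG-V1 (1.81 ± 0.08, adjusted p = 9.65e-13), a difference of 0.89 ± 0.11 (adjusted p = 1.55e-06). The libraries of the 2 conditions overlapped neither before nor after RA, with Grb10 lower in dTAG-V1 before RA (-0.07 ± 0.08, adjusted p = 1) and higher after it. Over this step the depleted cells also went from 24 to 48 h of depletion. In the RNA-seq time course, without RA, Grb10 had 22.0 and 19.6 CPM at 24 h and 31.1 and 32.8 at 48 h. The part of the second day of depletion in the difference was not tested.

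Meg3, Rian and Mirg did not share the rise with RA. Meg3 had 599 and 623 CPM after RA in DMSO and 917 and 1067 in dTAG-V1, and its change was not called in either condition (0.25 and -0.31). Rian had 475 and 509 CPM after RA in DMSO and 624 and 760 in dTAG-V1, and its fall was called in dTAG-V1 (-0.92 ± 0.09 SE, adjusted p = 0.000367) but not in DMSO (-0.35 ± 0.09, adjusted p = 1). The call of Rian in dTAG-V1 was lost with library size alone (-0.53, adjusted p = 0.705) and without replicate 1 of the depleted RA libraries (-0.77, adjusted p = 0.0242). Mirg fell in both, to 16.7 and 23.8 CPM in DMSO (-1.32 ± 0.12, adjusted p = 1.83e-06) and to 25.5 and 30.9 in dTAG-V1 (-1.89 ± 0.11, adjusted p = 1.33e-10). The difference between the RA changes was called for all 3, with -0.56 ± 0.12 for Meg3 (adjusted p = 0.000627), -0.57 ± 0.13 for Rian (adjusted p = 0.00124) and -0.57 ± 0.17 for Mirg (adjusted p = 0.00887). These 3 calls lay close to the limit of 0.5 and were lost when library size alone was used for scaling, and also without replicate 1 of the depleted RA libraries, where the values of Meg3, Rian and Mirg were -0.40, -0.38 and -0.37. Without replicate 2 of DMSO before RA Meg3 (-0.45) and Rian (-0.45) were not called, and without replicate 2 of DMSO RA Mirg was not called (-0.31).

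**Figure D4:**
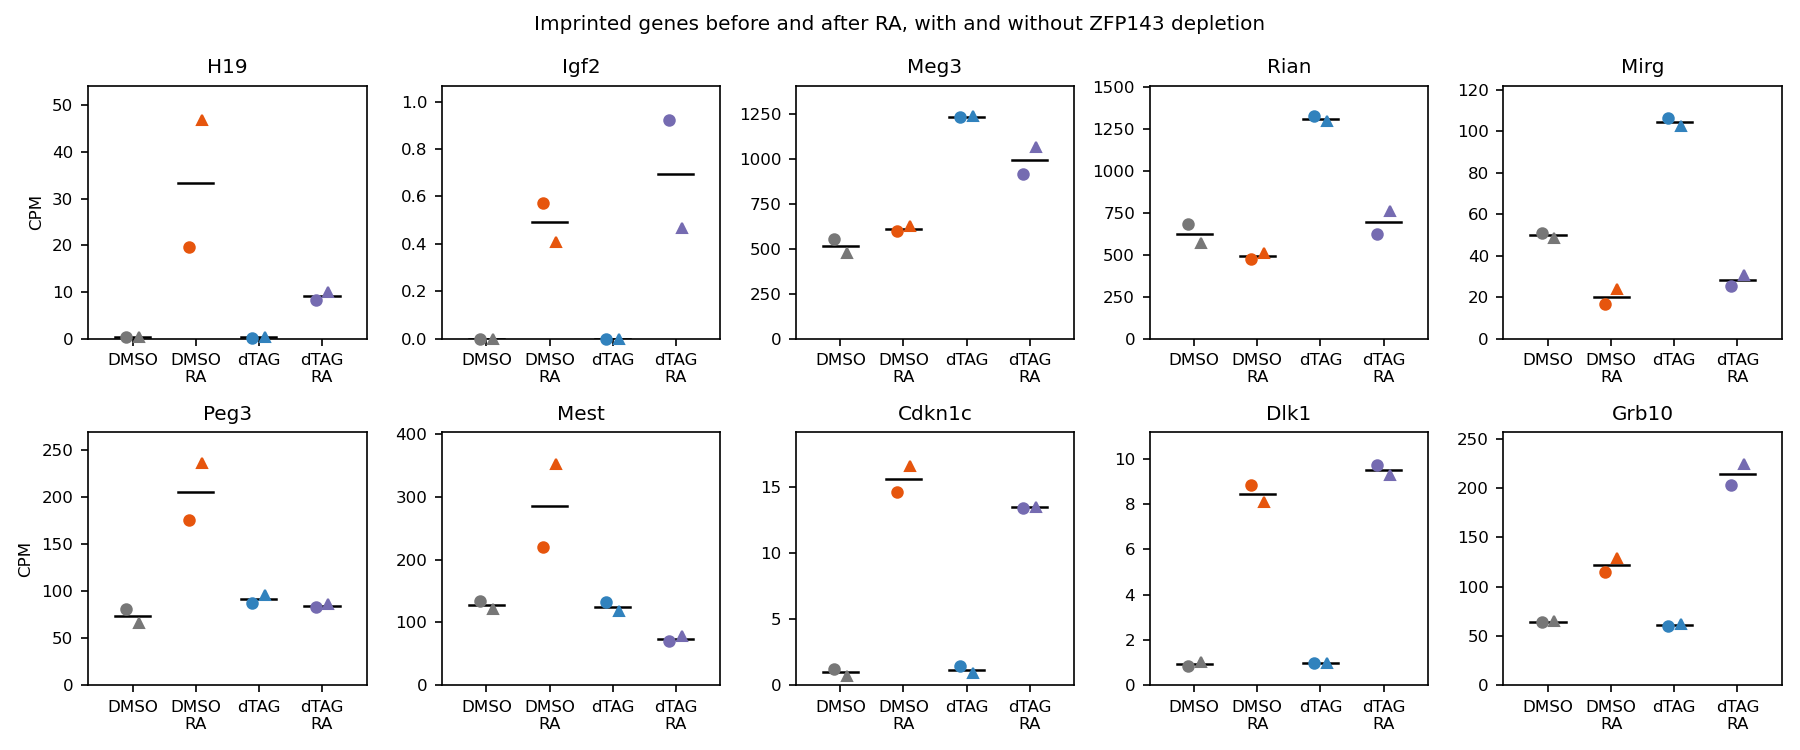
CPM of the 10 genes in each library of the RA experiment, by group, with a circle for replicate 1, a triangle for replicate 2 and a line at the mean of the 2 (each panel has its own axis, starting at 0). H19, Cdkn1c and Dlk1 lie at or under 1.454 CPM in every library before RA and higher in every library after it, whereas Meg3, Rian and Mirg are highest in dTAG-V1 before RA.

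Over the 9 members tested, RA in DMSO called 6 higher and 1 lower, against 25.8% and 18.1% of 15915 genes. H19 passed the filter only through the libraries where it was high, so its rise is no support for this count, which was 5 higher and 1 lower of 8 without it. RA in dTAG-V1 called 4 higher and 2 lower, or 3 and 2 without H19, against 25% and 18.5%. The difference between the RA changes called 1 higher and 5 lower, against 13.7% and 18%, with a median of -0.57 over the 9 members and of -0.07 over all genes. The difference for H19 was -1.57 ± 1.24 (SE), with a 95% interval from -4.14 to 1.00 and an adjusted p of 0.324, H19 having 10 reads in all before RA in each condition. Without replicate 1 of DMSO RA it was -2.09 with an adjusted p of 0.0166, and over the 13 alternatives the adjusted p ranged from 0.0166 to 0.546.

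Compared directly after RA, dTAG-V1 cells had less H19, Peg3 and Mest and more Grb10 than DMSO cells, 3 of 9 lower and 1 of 9 higher against 7.36% and 9.1% of all genes (2 of 8 and 1 of 8 without H19). H19 was at 27.9% of its DMSO RA level (log2 change -1.84 ± 0.25 SE, adjusted p = 6.16e-05), Peg3 at 41.3% (-1.28 ± 0.11, adjusted p = 2.73e-06) and Mest at 26.02% (-1.94 ± 0.14, adjusted p = 8.2e-09). All depleted RA libraries lay below all DMSO RA libraries for these 3 genes. Grb10 was 1.76-fold higher (0.82 ± 0.07, adjusted p = 0.00379). The size of the H19 difference depended on the DMSO RA libraries, with -2.36 without replicate 1 and -1.11 without replicate 2, called in both. Mest gave -2.24 and -1.57 and Peg3 -1.47 and -1.05 in the same 2 fits, all called. Grb10 lost its call with DESeq2 (0.84, adjusted p = 0.0284), without the count filter (0.78, adjusted p = 0.0126), and without replicate 1 of DMSO RA (0.74, adjusted p = 0.0651) or replicate 2 of the depleted RA libraries (0.76, adjusted p = 0.0444), the adjusted p ranging from 8.02e-09 to 0.0651 over 10 alternatives. Meg3 (0.70 ± 0.08, adjusted p = 0.119), Rian (0.49 ± 0.09, adjusted p = 1) and Mirg (0.50 ± 0.13, adjusted p = 1) lay above DMSO in both libraries without being called after RA. The TT-seq call rule called Meg3 (adjusted p = 3.97e-07) and Mirg (adjusted p = 0.0017) there, and library size alone called Meg3 (0.91, adjusted p = 0.000874).

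**Figure D5:**
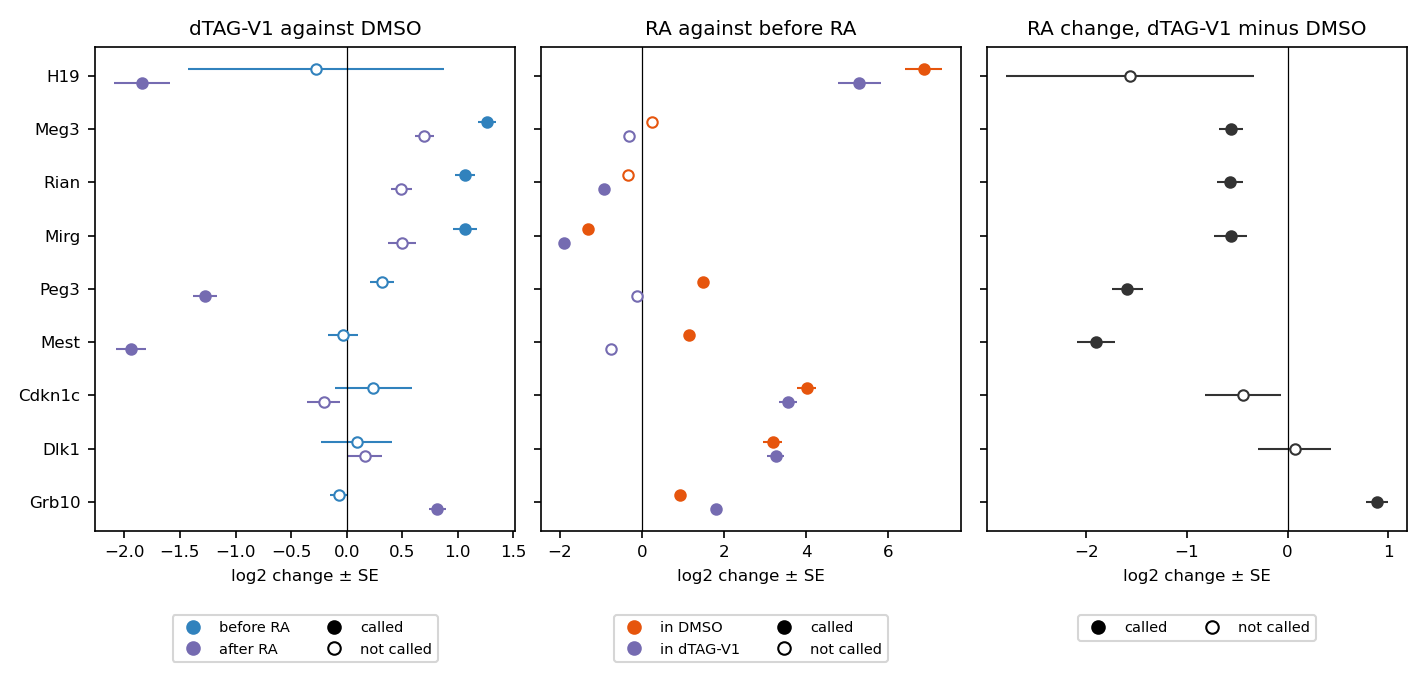
Log2 change ± SE from the edgeR fit for the 9 tested members: dTAG-V1 against DMSO before and after RA (left), RA against before RA in DMSO and in dTAG-V1 (middle), and the difference between the RA changes (right), with called values filled. H19, Peg3 and Mest lie below 0 in dTAG-V1 after RA, and Meg3, Rian and Mirg lie above 0 before RA.

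The DMSO RA libraries also differed from each other in cell state markers. The summed pluripotent markers were 1131 CPM in replicate 1 and 772 in replicate 2, against 7236 to 7546 before RA, and the summed mesoderm markers 24.9 and 41.6 CPM, against 2.52 to 2.68. Replicate 2, with fewer pluripotent and more mesoderm marker reads, was the one with more H19 (2.39-fold), Mest (1.6-fold), Mirg (1.43-fold) and Peg3 (1.35-fold). The other members did not share this. Igf2 (0.713-fold) and Dlk1 (0.919-fold) were lower in replicate 2, and Meg3, Rian, Grb10 and Cdkn1c were at 1.04-fold to 1.13-fold. The depleted RA libraries held 1417 to 1667 CPM of pluripotent markers and 14 to 14.1 CPM of mesoderm markers, and none of these markers was at 0 in both libraries of an RA group. Of the 5 mesoderm markers tested, 1 was lower in dTAG-V1 after RA, Meox1 with a log2 change of -3.76, and 0 were higher, with a median of 0.51 over the 5. The difference between RA changes called 2 of the 5 higher and 0 lower, with a median of 1.11, and 8 of the 10 pluripotent markers higher and 0 lower, with a median of 1.01, against 13.7% of all genes higher and 18% lower. After RA, 4 of the 10 pluripotent markers were higher in dTAG-V1, led by Esrrb with a log2 change of 2.44 and Klf4 with 1.38, and 0 were lower, against 9.1% and 7.36% of all genes. The part of this difference in cell state in the lower H19, Peg3 and Mest was not tested. The summed primitive endoderm markers were 217 to 220 CPM after RA in DMSO and 209 to 218 in dTAG-V1, those of neural cells 113 to 129 and 63.8 to 69 CPM, and those of trophoblast 98.4 to 106 and 84 to 93 CPM. The neural and trophoblast sums already differed before RA. Those of neural cells were then 241 to 256 CPM in DMSO and 138 to 141 in dTAG-V1, and those of trophoblast 99.4 to 108 and 74.4 to 83.1 CPM.

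The gene products that act with these members were read from lists. Of the insulin-like growth factor (IGF) pathway, 12 of 14 genes were tested in RNA-seq. At 72 h of depletion 3 were lower, Igf2bp2 (log2 change -2.62) and Igf2bp3 (-0.96), which bind Igf2 and H19 RNA among others, and Igfbp2 (-1.40), a secreted IGF-binding protein, and 2 were higher, the insulin receptor substrates Irs2 (1.61) and Irs1 (1.55), with a median of -0.185. Over all genes 12% were called lower and 13.7% higher at 72 h. After RA, 4 were lower in dTAG-V1 than in DMSO and 0 higher, against 7.36% and 9.1% of all genes, with a median of -0.524 against 0.00311 over all genes. Igfbp5 had a log2 change of -2.42, Igfbp2 of -2.32 and Igf2bp2 of -1.09 there. Igf2r, the receptor that clears IGF2 and is itself imprinted, had 141 ± 4.27 CPM in DMSO and a log2 change of 0.71 at 48 h (adjusted p = 0.00879), and it was not called at 24 h (0.23, adjusted p = 1) or 72 h (0.56, adjusted p = 0.886).

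Of the genes that set or maintain imprints, 14 of 15 were tested in the RNA-seq time course. Dppa3, which protects maternal methylation in the early embryo, went from 79.3 CPM in DMSO to 43.2 at 24 h, 7.97 at 48 h and 2.84 at 72 h (log2 change -4.84, adjusted p = 8.92e-22). Dnmt3l, a cofactor of de novo methylation, rose from 1.72 to 21.8 CPM at 72 h (3.66, adjusted p = 2.37e-14), and Tet3, an oxidase of methylcytosine, from 6.28 to 21.8 CPM (1.79, adjusted p = 3.28e-10). At 24 h 1 gene was lower and 0 higher, and at 48 h as at 72 h 2 were lower and 2 higher, with medians of -0.113, -0.0863 and -0.0706. The shares of all genes called lower were 3.41%, 7.71% and 12% at these times, and those called higher 2.32%, 10.5% and 13.7%. In dTAG-V1 against DMSO after RA no gene of this list was called (0 of 15, edgeR, median -0.00661, against 7.36% of all genes lower and 9.1% higher). Methylation itself was not measured.

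In the RA experiment, the profile of H19 over the 8 libraries was most like that of Mrc2, Sgce and Pmp22 among 11344 genes with a mean of at least 100 reads. The root mean square difference of log2 CPM, each gene being centred on DMSO before RA, was 0.433, 0.544 and 0.546. Sgce is itself imprinted. Igf2 had too few reads for such a comparison.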

How the data were processed

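Count tables of TT-seq, an RNA-seq depletion time course and RNA-seq with RA were analysed, each with 4 groups of 2 libraries. The counts were deposited by the authors as raw reads per gene of the mm10 GENCODE annotation: TT-seq reads were aligned with STAR, deduplicated with Picard and counted over whole genes, strand by strand, with HTSeq counting shared reads for every gene, and RNA-seq reads were counted by STAR, its strand setting not being given in the sources used here. The ZFP143 peaks were deposited with the fold enrichment over input and the −log10 q-value that the authors obtained from MACS2, and the CTCF peaks as positions only. The deposited 4C tables have no viewpoint at these genes and were not used.

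Genes whose counts exceeded 10 in 4 or more of the 8 libraries were scaled by TMM and fitted over all 4 groups of a table in edgeR 4.0.16 (R 4.3.3, limma 3.58.1). TT-seq contrasts and the difference between RA changes used the quasi-likelihood test (Benjamini-Hochberg adjusted p under 0.05, absolute log2 change above 0.5), the other RNA-seq contrasts glmTreat (1.5-fold, adjusted p under 0.01), both adjusted over all tested genes. Intervals are 95%, and the limit for a count of 0 is 3 counts, covering counting error only. The fitting code was tested on simulated data. Alternatives were DESeq2 1.42.0, its size factors, library size alone, no count filter, the TT-seq call rule for RNA-seq, a replicate block and leaving out each library. Gene positions came from GENCODE vM21 (mm10), 1-based, and sequences from the same build, read with pysam 0.24.0. Levels per kb used the union of exons, or the gene body for TT-seq, and tables are normalised separately, so levels are not compared between them.

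The members, the lists of other imprinted genes, of imprint maintenance, of the IGF pathway and of cell type markers, and the tests were chosen with earlier results of these data known. All 10 members were named in every comparison, up to 3 called genes in each direction from the lists, and the 3 genes most like H19.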

Additional observations from a re-analysis of the deposited data

Results flagged for a closer look

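The RA change differed between dTAG-V1 and DMSO cells, by the test of the difference itself, for 6 members (5 lower and 1 higher of 9, against 18% and 13.7% of 15915 genes), and Meg3, Rian and Mirg lost this call with library size alone. The log2 change with RA in dTAG-V1 minus that in DMSO was -1.908 for Mest, -1.594 for Peg3, -0.5724 for Rian, -0.5658 for Mirg, -0.5639 for Meg3 and 0.8879 for Grb10. For Meg3, Rian and Mirg the groups already differed before RA, and for Mest, Peg3 and Grb10 the called difference between dTAG-V1 and DMSO was the one after RA. Over the RA step the depleted cells went from 24 to 48 h of depletion. All 6 differences therefore also hold a second day of depletion, whose part was not tested.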

How the results depend on the processing

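Member calls at 2 h of TT-seq, 0 with edgeR, were 2 without a count filter (Meg3 and Rian), 1 with a replicate block (Meg3) and 1 with DESeq2 (Meg3). At 6 h, 2 became 1 with the size factors of DESeq2 and 0 to 1 on leaving out a library, and at 24 h 3 became 1 to 3. RNA-seq calls at 24 h fell from 2 to 1 with DESeq2, and those at 72 h rose from 3 to 5 with library size alone and with the TT-seq call rule. The RA by depletion calls, 6, were 3 with library size alone and 3 to 7 on leaving out a library. The cause was not tested. Library size alone moved the median of all genes to between 0.149 and 0.394 in the RNA-seq contrasts other than the interaction.

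The changes of sign all concerned members without a call. Mest at 48 h went from 5.9e-05 to -0.007725 with the size factors of DESeq2, -0.005926 with DESeq2 and -0.03946 without a filter. With library size alone, Peg3 became 0.08968 at 48 h, 0.09959 at 72 h and 0.2769 with RA in dTAG-V1, Meg3 0.07951 with RA in dTAG-V1, Mest 0.1004 and Grb10 0.06505 before RA, and Cdkn1c 0.002917 after RA. On leaving out a library, TT-seq values ranged from -1.023 to 0.724 (2 h), -1.249 to 0.4993 (6 h) and -1.215 to 1.068 (24 h) for Mest, -0.4713 to 0.2646 (2 h) and -0.2297 to 0.5079 (6 h) for Grb10, and -0.0108 to 0.242 for Peg3 (24 h). Mest ranged from -0.05661 to 0.06896 at 48 h and from -0.1139 to 0.04344 before RA, Cdkn1c from -0.1262 to 0.7146 and Dlk1 from -0.05583 to 0.239 before RA, and the Dlk1 difference between RA changes from -0.07847 to 0.2163. Of the member values under alternatives, 770 kept sign and call, 33 lost a call, 20 gained one and 26 changed sign.

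Each group holds a replicate 1 and a replicate 2, so each number is shared across the 4 groups of a table, and the labels name no shared batch. Deviations of same-numbered libraries correlated at 0.193 to 0.631 in TT-seq, -0.0419 to 0.0621 in the RNA-seq time course and -0.0986 to 0.125 in the RA experiment, and the replicate block changed the member count by over 1.5 times at 2 h of TT-seq only. It added a call of Grb10 at 24 h of TT-seq (0.94, adjusted p = 0.049).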

Other observations

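Of the other listed imprinted genes, 70 of 73 were in the tables and 8 of these had a ZFP143 peak at their start, namely Tssc4, Zim1, Zim3, Zfp264, Peg10, Sgce, Ube3a and Gab1, while 7 had a CTCF peak there. Over all genes, 7.1% had a ZFP143 peak and 9.47% a CTCF peak at the start. Of 50 genes of the list tested in TT-seq, 2 were called lower at 2 h. Zfp264, a zinc finger gene, went from 13.5 CPM in DMSO to 4.23 at 2 h of TT-seq (log2 change -1.68, adjusted p = 0.00856, edgeR), and Gab1, a signalling adaptor, from 664 to 435 CPM (-0.61, adjusted p = 0.0389). Peg10, derived from a retrotransposon, was lower at 24 h in TT-seq (-2.40, adjusted p = 0.0186) and in RNA-seq (-3.06, adjusted p = 2.54e-12), and in RNA-seq its change was -2.30 at 48 h (adjusted p = 1.02e-10) and -0.88 at 72 h (adjusted p = 0.0161, not called). Zim1, which neighbours Peg3, was lower in dTAG-V1 before RA (0.202 against 2.32 CPM, adjusted p = 3.18e-05). Other genes moved later: Atp10a fell at 72 h (-4.05, adjusted p = 2.1e-17), and Sgce (3.39), Osbpl5 (3.18) and Peg13 (2.63) rose. In TT-seq 2, 1 and 3 genes of this list were called lower and 0, 0 and 2 higher (2, 6 and 24 h), of 50 tested, where 2.43%, 2.83% and 4.09% of all genes were called lower and 0.168%, 0.397% and 2.02% higher. In RNA-seq 3, 6 and 7 were called lower and 0, 7 and 12 higher (24, 48 and 72 h), of 48 tested, where 3.41%, 7.71% and 12% of all genes were lower and 2.32%, 10.5% and 13.7% higher.

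With RA in DMSO, 26 of 56 tested genes of the list rose and 10 fell, against 25.8% and 18.1% of all genes, led by Sgce (5.75) and Peg10 (5.57), and by Plagl1 (-2.63) and Cobl (-2.08). With RA in dTAG-V1, 20 rose and 7 fell, against 25% and 18.5%. After RA, Peg10 stood at 73.4 CPM in dTAG-V1 and 1214 CPM in DMSO (-4.05, adjusted p = 1.77e-13), and Nnat at 1.02 and 13.5 CPM (-3.69, adjusted p = 9.16e-10), while Tnfrsf23 (2.48), Magel2 (2.04) and Axl (1.91) were higher in dTAG-V1. In dTAG-V1 against DMSO, 12 were lower and 9 higher after RA, against 7.36% and 9.1% of all genes, and 4 and 2 before RA, against 3.66% and 2.74%. The difference between RA changes called 15 lower and 8 higher, against 18% and 13.7%. Kcnq1 had no read in dTAG-V1 before RA and 2.89 CPM after it.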
